A study of Mus musculus with 24 samples.

Results

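CpG-poor coding exon tiles are 100 bp windows of the mouse genome that hold 1 to 3 CpGs, lie for at least 50 bp in the coding part of an exon and sit away from promoters. They were taken from the 758685 tiles with a methylation level in all 3 tissues of the study. Of these, 526690 held 1 to 3 CpGs, 410395 of those had fewer than 50 soft-masked (repeat) bases, 23459 of those had at least 50 bp in a coding exon of a curated RefSeq transcript, and 16324 of those lay more than 5 kb from every transcription start. These 16324 tiles made up 2.15% of the common tiles and fell in 6917 genes. A single tile was found in 3064 genes, 100 genes held 10 or more, and Ttn held the most, with 110. The whole tile was coding in 8141 cases (49.9%).

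The samples were male and female C57BL/6J mice aged 24 weeks, with no treatment and no engineered allele in any group. Methylation was measured by reduced representation bisulphite sequencing, which reads the DNA next to chosen restriction sites, in 12 liver libraries (6 labelled male and 6 female), 6 brain libraries (3 and 3) and 6 heart libraries (3 and 3). The labels give 2 of the mice opposite genders in liver and in the other organs, so these counts are as labelled. DNA came from a frozen piece of each organ (the left liver lobe, the rostral brain and the apex of the heart). The columns of levels carry no mouse or gender, so each tissue level is the mean over both genders, and libraries of different tissues that came from the same mouse were treated as independent. Each piece of organ mixed many cell types, so a change in the share of a cell type and a change within a cell type cannot be told apart. The depth of each value is unknown beyond the coverage minimum of the authors, and p-values measure only the spread between libraries.

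In mammals most CpGs in the body of a gene are methylated, in contrast to the CpG islands of promoters. The enzyme DNMT3B is guided to transcribed gene bodies by trimethylation of lysine 36 on histone H3, a mark that is denser over exons than over introns. A methylated CpG mutates readily, so coding CpGs are kept mainly where the amino acid sequence needs them, as in the CGN codons of arginine. Enhancers and alternative promoters also occur inside genes and are often unmethylated in the tissues that use them.

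The sequences of 12 tiles to which the results return are given here because they show what a CpG-poor coding tile is: a stretch of ordinary exon with a few CpGs, whose level can nevertheless differ between organs. They are read 5′ to 3′ on the plus strand of the mm10 genome (GRCm38, RefSeq), whatever the strand of the gene. Capitals mark the CpGs of the genome sequence inside the tile, and which of them entered a level is unknown.
Myo1c, chr11:75661501-75661600, lower in liver: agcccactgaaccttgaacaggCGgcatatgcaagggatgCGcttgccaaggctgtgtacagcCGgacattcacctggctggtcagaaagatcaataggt
Naca, chr10:128044001-128044100, higher in liver: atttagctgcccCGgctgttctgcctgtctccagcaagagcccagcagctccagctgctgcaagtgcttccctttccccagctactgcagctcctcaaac
Phldb3, chr7:24619401-24619500, at 0 in brain and heart: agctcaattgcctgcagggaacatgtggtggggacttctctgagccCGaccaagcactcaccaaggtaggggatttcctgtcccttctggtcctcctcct
Nyap1, chr5:137733801-137733900, lower in brain: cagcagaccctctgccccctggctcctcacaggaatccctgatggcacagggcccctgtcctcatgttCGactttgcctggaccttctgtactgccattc
Cyp7a1, chr4:6268201-6268300, higher in brain: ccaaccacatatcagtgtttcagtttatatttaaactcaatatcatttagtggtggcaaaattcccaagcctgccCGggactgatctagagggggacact
Sptbn1, chr11:30139401-30139500, lower in heart: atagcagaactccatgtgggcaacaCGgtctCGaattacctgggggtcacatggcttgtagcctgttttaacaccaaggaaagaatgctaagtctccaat
Lpin1, chr12:16541701-16541800, higher in heart: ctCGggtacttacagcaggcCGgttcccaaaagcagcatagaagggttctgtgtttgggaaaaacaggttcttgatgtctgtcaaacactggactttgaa
Ctc1, chr11:69036001-69036100, low in every tissue: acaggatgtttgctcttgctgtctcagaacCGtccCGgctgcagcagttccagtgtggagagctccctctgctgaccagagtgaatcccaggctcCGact
Pck1, chr2:173158301-173158400, hepatocyte list: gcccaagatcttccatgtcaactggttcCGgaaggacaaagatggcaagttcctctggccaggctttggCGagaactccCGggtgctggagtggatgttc
Shank3, chr15:89549001-89549100, neuron list: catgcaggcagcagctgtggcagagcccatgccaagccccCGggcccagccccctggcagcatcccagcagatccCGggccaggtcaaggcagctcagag
Myh7, chr14:54987401-54987500, heart muscle list: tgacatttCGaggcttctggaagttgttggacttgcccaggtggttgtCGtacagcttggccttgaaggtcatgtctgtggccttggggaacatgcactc
Pecam1, chr11:106688901-106689000, blood and endothelium list: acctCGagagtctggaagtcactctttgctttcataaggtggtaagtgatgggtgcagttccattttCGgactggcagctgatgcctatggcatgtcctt
The Myo1c tile lies in the 10th coding exon of 32, and the Naca tile in a coding exon of 5916 bp, the long exon that sets the muscle form of this chaperone apart. The Pck1 tile lies in the 9th and last coding exon, and the Shank3 tile in the 21st of 22.

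CpG-poor coding tiles were highly methylated in all 3 organs. The mean level over the 16324 tiles was 83.8% ± 0.266 (SD, n = 12) in liver, 81.7% ± 1.47 (SD, n = 6) in brain and 77.7% ± 0.178 (SD, n = 6) in heart, and the medians over tiles were 90.5%, 87.5% and 84.6%. Library means ran from 83.4% to 84.3% in liver, from 79.9% to 83.6% in brain and from 77.6% to 78.1% in heart. Heart lay below every library of the other organs, whereas the ranges of brain and liver overlapped. The difference of heart minus liver was -6.14 points (SE 0.106, adjusted p = 0.000162, exact permutation of library labels, the smallest it can give), that of brain minus liver was -2.19 points (SE 0.605, adjusted p = 0.000242, exact permutation) and brain was 3.95 points higher than heart (SE 0.604, adjusted p = 0.00217, exact permutation). Over all common tiles the means were 65.3% in liver, 65.2% in brain and 59.8% in heart. Brain libraries spread most: the standard deviation of the mean level was 2.67 in tiles with a GC content of 65% or more, against 0.536 in tiles under 45% GC.

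Within the 16324 tiles, 8504 (52.1%, with 33.1% over all common tiles) were above 80% in all 3 organs. Below 20% in all 3 were 96 (0.588%, with 15.8% over all common tiles). A level above 80% was found in 76.0% of them in liver, 69.1% in brain and 60.6% in heart. Levels below 20% were rare, with 262 tiles in liver, 177 in brain and 322 in heart. Over all common tiles 18.3%, 17.1% and 19.2% were below 20% in liver, brain and heart. The plot of levels shows that coding tiles and introns alike peaked above 90%, with the intron tiles spread further to the left.

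**Figure D1:**
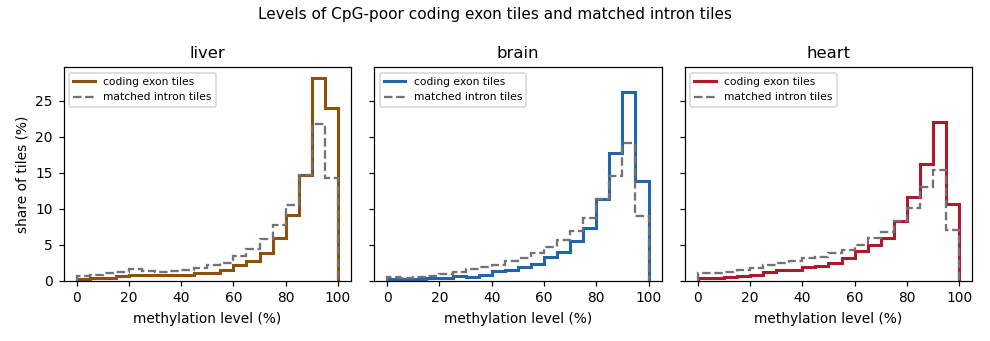
Share of tiles (vertical axis, %) by methylation level (horizontal axis, %, in steps of 5) for the 16324 coding exon tiles (solid) and the 54220 matched intron tiles (dashed) in each tissue. Coding tiles above 80% made up 76.0% in liver, 69.1% in brain and 60.6% in heart, and intron tiles above 80% made up 61.3%, 54.1% and 45.4%.

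Coding tiles were more methylated than intron tiles of the same genes with the same number of CpGs. A match was found for 12371 tiles (75.8%) in 5208 genes, against 54220 intron tiles that met the same limits on CpGs, repeats and distance. In liver the coding tiles stood at 83.8% and the matched introns at 78.3%, a difference of 5.50 ± 0.152 points (SD, n = 12). In brain the levels were 81.6% and 76.7%, a difference of 4.91 ± 0.626 points (SD, n = 6), and in heart 77.6% and 71.5%, a difference of 6.07 ± 0.0921 points (SD, n = 6). Coding tiles were higher in 12 of 12 liver, 6 of 6 brain and 6 of 6 heart libraries (adjusted p = 0.00147 in liver, and 0.0313 in brain and in heart, exact two-sided sign-flip tests over libraries, the smallest these numbers of libraries allow). Single libraries gave 5.21 to 5.66 points in liver, 3.94 to 5.62 in brain and 5.95 to 6.19 in heart. Coding and intron tiles were not alike in every other respect: the median GC content was 53% against 49%, the median number of CpGs in the surrounding 1 kb was 17 against 14, and the median distance to a transcription start was 24.9 kb for matched coding tiles against 38.0 kb. With GC content matched within 5 points as well, the difference was 6.10 points in liver, 6.17 in brain and 7.18 in heart. With the nearest intron tile within 5 kb as the partner, which 6448 tiles had, it was smaller, at 2.65 points in liver, 2.54 in brain and 3.29 in heart, whereas the same 6448 tiles set against all introns of their genes gave 4.93, 4.52 and 5.46.

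**Figure D2:**
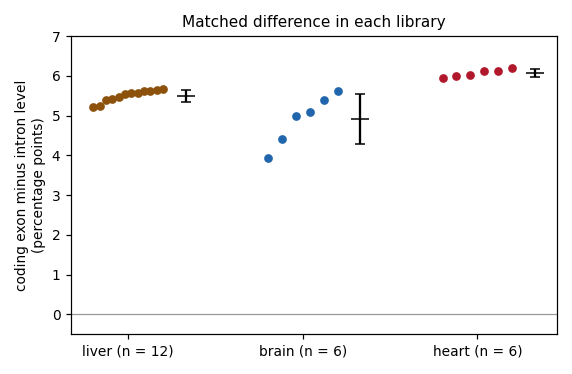
Mean level of coding exon tiles minus matched intron tiles (vertical axis, percentage points) for each library (points) of liver, brain and heart, with the mean and SD over libraries in black. Every library lies above 0, from 3.94 in a brain library to 6.19 in a heart library.

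The size of the difference varied little between organs. It was 0.577 points larger in heart than in liver (SE 0.0578, adjusted p = 0.000162, exact permutation) and the difference of brain minus heart was -1.17 points (SE 0.258, adjusted p = 0.00325, exact permutation). The difference of brain minus liver was -0.589 points (SE 0.259, adjusted p = 0.00361, exact permutation), and it depended on the setting: brain was 0.0729 points above liver with GC content matched and 0.205 points above it with medians, while the difference was -0.454 with the presence of CCGG matched. The heart and liver values were within 0.0990 points of each other among tiles with 1 CpG (adjusted p = 0.466, exact permutation).

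The higher level was a property of a majority of genes and not of all. Coding tiles exceeded introns in 65.4% of the 5208 genes in liver, 64% in brain and 64.1% in heart, with median differences of 4.21, 4.54 and 5.47 points. Among the 1399 genes with at least 3 coding and 3 matched intron tiles these shares were 70.5%, 70.1% and 69.6%. Averaged over organs, coding tiles were higher by more than 10 points in 479 of these genes and introns by more than 10 points in 112.

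Intron tiles were less methylated the further they lay from coding sequence, up to 10 kb. Intron tiles within 200 bp of a coding exon stood at 80.7% ± 0.372 (SD, n = 12) in liver, 79.1% ± 0.966 (SD, n = 6) in brain and 74.1% ± 0.274 (SD, n = 6) in heart, already below the coding tiles. Intron tiles 1 to 2 kb away stood at 78.1%, 76.0% and 70.9%. The lowest means, 74.2%, 72.7% and 66.7%, were reached 5 to 10 kb away, and tiles more than 50 kb away stood at 75%, 74.1% and 67.4%. The profile over distance had the same shape in the 3 organs, with liver and brain close together and heart lower throughout. These bins hold different genes, so the profile is a description and was not tested.

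**Figure D3:**
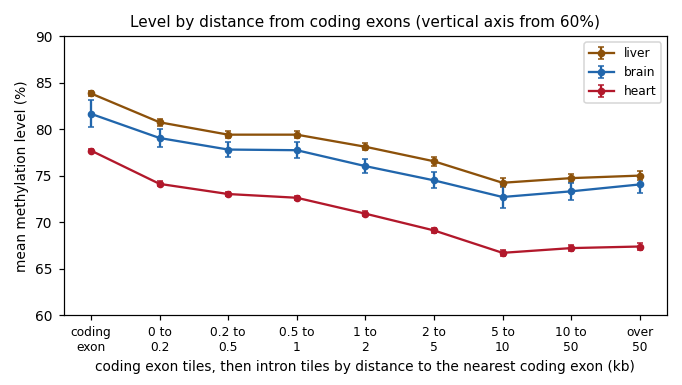
Mean methylation level (vertical axis, %, starting at 60%) of coding exon tiles and of intron tiles by distance to the nearest coding exon (horizontal axis, kb), with bars for the SD over libraries (12 liver, 6 brain, 6 heart). Liver fell from 83.8% in coding tiles to 74.2% at 5 to 10 kb, brain from 81.7% to 72.7% and heart from 77.7% to 66.7%.

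Coding tiles of a gene did not all share a level. Adjoining tiles of the same exon (2669 pairs) differed by a median of 4.54 points in liver, 5.62 in brain and 7.22 in heart, with correlations across pairs of 0.656, 0.668 and 0.637. The next tile in another exon of the same gene (5441 pairs) differed by 7.68, 9.48 and 12.3 points, with correlations of 0.146, 0.119 and 0.150, and the next tile in another gene (6905 pairs) by 9.03, 10.5 and 13.7 points. These are descriptions across tiles, which share libraries and, for adjoining tiles, sequencing fragments. The correlation was thus highest within an exon.

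The 4 genes whose coding tiles stood furthest above their introns were Tet2, Ets2, Sall3 and Pak6. Tet2 encodes an enzyme that oxidises 5-methylcytosine and so starts its removal. Its 4 coding tiles were at 95.5% in liver, 94.2% in brain and 94.3% in heart, while its 3 matched intron tiles were at 26.1%, 43.1% and 22.7%. Ets2, a transcription factor of the ETS family, had 3 coding tiles at 93.9%, 93.3% and 91.6% and 3 intron tiles at 10.03%, 73.5% and 22.1%. The Ets2 introns were thus lowly methylated in liver and heart and not in brain, beside exons that were highly methylated in each organ. Sall3, a zinc finger transcription factor, had coding levels of 77.3%, 72.1% and 77.0% against 10.03%, 22.6% and 21.2%, and Pak6, a p21-activated kinase, had 83.6%, 78.0% and 68.6% against 16.5%, 26.2% and 17.9%. The Pak6 intron tiles differed widely, from 3.62% to 63.4% in liver, from 1.6% to 94.0% in brain and from 0.967% to 74.9% in heart.

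The reverse pattern was most marked in Jmjd1c, Kank4, Rxfp2 and Dennd5b. The 3 coding tiles of Jmjd1c, which encodes a protein of the Jumonji histone demethylase family, were at 21.8% in liver, 26.1% in brain and 22% in heart, and its 5 intron tiles at 85.3%, 80.4% and 79.2%. Kank4 had 3 coding tiles at 19%, 36.3% and 26.3% against 13 intron tiles at 85.1%, 86.6% and 84.0%. Rxfp2, a receptor for insulin-like peptide 3, had 4 coding tiles that ran from 4.96% to 94.9% in liver, so that only part of its coding sequence was lowly methylated. Dennd5b had 3 coding tiles at 64.9%, 43.3% and 47.3% against 3 intron tiles at 96.2%, 89.4% and 91.6%. Its coding tiles also ran widely, from 26.6% to 94.0% in liver, from 15.8% to 93.6% in brain and from 19.2% to 89.3% in heart. These 8 genes were picked for the size of their difference, so their values are a description with no test.

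The number and setting of the CpGs went with modest differences in level. Tiles with 1, 2 and 3 CpGs had means of 81.5%, 83.7% and 84.9% in liver, 79.5%, 81.7% and 82.5% in brain, and 74.2%, 77.6% and 79.2% in heart. First, internal and last coding exons stood at 83.4%, 83.9% and 83.6% in liver, 81.1%, 81.8% and 80.6% in brain, and 77.9%, 77.8% and 77.0% in heart. Tiles in genes with a single coding exon were above these classes in each organ, at 84.5% in liver, 85.1% ± 1.40 (SD, n = 6) in brain and 80.7% in heart. Tiles in a neighbourhood rich in CpGs (more than 40 in 1 kb, 299 tiles) were lower, at 80.2% in liver, 76.8% in brain and 73.8% in heart, and 6.69%, 7.36% and 9.36% of them were below 20%.

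In tiles with a single CpG the bases on either side of it went with the level. Of 2928 such tiles, 1448 (49.5%) had the CpG in CCGG, the site of the enzyme MspI, 1006 (34.4%) had it in TCGA, the site of the enzyme TaqI, and 474 had neither. TCGA tiles were at 76.6% in liver, 75.5% in brain and 68.3% in heart, CCGG tiles at 83.9%, 80.9% and 76.3%, and the others at 84.7%, 83.8% and 80.4%. The 12680 matched intron tiles with a single CpG had the same order, with TCGA at 69.3%, 71.3% and 60.7%, CCGG at 78.7%, 76.3% and 70.6%, and the others at 80.7%, 80.2% and 74.7%. TCGA tiles were thus the lowest of the 3 kinds in exons and introns alike. Whether TaqI was used, and how bases filled in at cut ends were handled before calling, is not given in the sources used here, so the part of library preparation in these levels, those of the CGA and TCG codons included, was not tested. With the presence of both sites matched between exons and introns, the coding excess was 5.39 points in liver, 5.10 in brain and 6.10 in heart.

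The place of the CpG in the codon was compared in the single-CpG tiles with 1 reading frame. A CpG in codon positions 1 and 2 (the CGN codons of arginine, 1152 tiles) was at 82.2% in liver, 79.9% in brain and 74.4% in heart. A CpG in positions 2 and 3 (NCG, codons of serine, proline, threonine and alanine, 654 tiles) was at 83.0%, 80.5% and 75.2%, and a CpG that joins codons (947 tiles) at 80.6%, 78.9% and 73.8%. Each of the 9 differences between classes had the same sign in every library of its organ (adjusted p = 0.00147 in liver and 0.0313 in brain and heart, exact sign-flip tests over libraries). In tiles wholly coding the CGN class was not above the class that joins codons in brain (-0.117 points) or heart (-1.27). In liver the CGN class was 0.478 points above that class (adjusted p = 0.00586, exact sign-flip test). The NCG class was not above the class that joins codons in heart, with -0.0396, and was above it in liver (1.52) and brain (0.812). The CCGG share was 55.6%, 59.9% and 33.9% in the 3 classes. In tiles without CCGG the order of the classes was the same in each organ. The CGN minus NCG difference in heart (-0.341) did not pass the test there (adjusted p = 0.125, exact sign-flip test). These tiles still included those with TCGA, so the order in them is not free of that site. Among CpGs outside CCGG and TCGA the CGN class (132 tiles) was 2.30 points above the NCG class (116 tiles) in brain and 4.10 points above it in heart, the reverse of the order over all tiles, while in liver both were at 85.9%. By codon the arginine codon CGA, 92.6% of whose 404 tiles had the CpG in TCGA, was at 77.3% in liver, 76.5% in brain and 69.4% in heart, and the arginine codon CGC, none of whose 47 tiles did, was at 89.7%, 90.2% and 88.7%.

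A minority of coding tiles differed between organs by a wide margin. A tile was called different at an adjusted p of 0.01 or less (limma, over all 758685 common tiles) and a difference of at least 25 points. By this rule 612 coding tiles (3.75%, with 4.76% over all common tiles) were higher in brain than in liver and 863 (5.29%, with 5.04% over all) were lower. In heart against liver 468 (2.87%, with 2.87% over all) were higher and 1361 (8.34%, with 7.94% over all) were lower. In brain against heart 936 (5.73%, with 7.71% over all) were higher and 288 (1.76%, with 1.75% over all) were lower. The shares of coding tiles were near those of all common tiles in every contrast except brain over heart and brain over liver, where they were smaller. Over the 410395 common tiles with 1 to 3 CpGs and few repeat bases the shares were 6.31% and 6.79% for brain against liver, 3.77% and 11% for heart against liver and 10.4% and 2.29% for brain against heart, each above that of coding tiles. In any pair 2852 (17.5%) were called, with 18.8% over all. Matched intron tiles were called more often in each contrast, with 6.37% and 8.80% higher and lower in brain than liver, 4.07% and 13.0% in heart against liver and 10.8% and 3.1% in brain against heart. These shares are set side by side and the difference between exons and introns was not tested.

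Called in the same direction against both other organs, 316 tiles were higher in liver (1.94%, with 2.06% over all common tiles) and 417 lower (2.55%, with 2.46%). In brain 93 were higher (0.57%, with 1.45%) and 239 lower (1.46%, with 1.43%), and in heart 24 were higher (0.147%, with 0.163%) and 587 lower (3.6%, with 3.66%). Apart from the tiles higher in brain, these shares were near those of all common tiles. These groups resembled the whole set in GC content (medians of 52% to 54%, with 53% over all coding tiles) and in CpGs per 1 kb (15 to 18, with 17 over all). A start of a predicted transcript, which the limit of 5 kb did not use, lay within 1 kb of 1.9% of the tiles higher and 3.84% of those lower in liver, 4.3% and 3.35% in brain and 8.33% (2 of 24 tiles) and 3.75% in heart, with 2.45% over all coding tiles. The following examples are the tiles with the widest gap in each direction, and their gaps are a description since they were chosen for them.

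The tiles lowest in liver lay in Rusc2, Myo1c, Epha2 and Tnfrsf19. Myo1c encodes an unconventional myosin that moves membranes. Its tile ran from 9.10% to 24.5% in liver (median 19.1%), from 86.2% to 100% in brain (median 89.1%) and from 86.7% to 91.5% in heart (median 88.8%), with no overlap between liver and the other organs. The tile of Epha2, a receptor tyrosine kinase for ephrins, was at 24.7% ± 6.68 (SD, n = 12) in liver against 96.0% in brain and 96.4% in heart. The Rusc2 tile stood at 17.1% in liver, 93.4% in brain and 92.3% in heart, and the tile of Tnfrsf19, a receptor of the tumour necrosis factor family, at 23.7%, 97.3% and 94.5%.

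Tiles highest in liver lay in Phldb3, Rin2, Naca and Cand2. Naca encodes the alpha chain of a complex that binds nascent proteins at the ribosome, and its long exon is used in striated muscle. The Naca tile ran from 64% to 86.5% in liver (median 74.6%), from 19% to 25% in brain (median 20.2%) and from 7.80% to 23.2% in heart (median 15.3%). The tile of Cand2, a regulator of cullin ubiquitin ligases, was at 74.5% in liver, 21.1% in brain and 19.3% in heart, and that of Rin2, a regulator of Rab5, at 73.8%, 17.5% and 7.97%. The Phldb3 tile, with 1 CpG, was listed at 0 in all 6 brain and all 6 heart libraries and ran from 41.2% to 91.7% in liver. Liver was the outlying organ at each of these tiles. The brain and heart libraries lay together except at Rin2, where brain ran from 10.3% to 27.0% and heart from 4.8% to 10.3%.

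The tiles lowest in brain lay in Nyap1, Kctd4, Klhl2 and Fgfr2. Nyap1 encodes a neuronal adaptor of phosphoinositide 3-kinase. Its tile ran from 10.5% to 39.8% in brain (median 16.7%), from 80.9% to 96.8% in liver (median 91.7%) and from 79.0% to 87.9% in heart (median 83.6%). The tile of Klhl2, an actin-binding adaptor of a ubiquitin ligase, was at 33.5% in brain against 85.8% in liver and 87.4% in heart, and that of Fgfr2, a fibroblast growth factor receptor, at 30.1% against 82.4% and 85.3%. Kctd4 was at 25.5% in brain, 85.2% in liver and 83.0% in heart. The spread between brain libraries was wide at these tiles, and no brain library reached the lowest library of the other organs.

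Tiles highest in brain lay in Fbxw15, Cyp7a1, Asap2 and Madd. Cyp7a1 is the rate-limiting enzyme of bile acid synthesis in hepatocytes. Its tile, in the last coding exon, ran from 2.70% to 36.8% in liver (median 22.6%), from 32.6% to 44.1% in heart (median 39.6%) and from 87.0% to 96.6% in brain (median 89.9%). Madd, which encodes an exchange factor for Rab3, had a tile at 75.8% in brain, 17.2% in liver and 28.0% in heart. Asap2, a GTPase-activating protein for Arf, had one at 75.5% in brain, 24.0% in liver and 18.6% in heart. The tile of Fbxw15, an F-box protein, was at 82.9% in brain, 29.7% in liver and 30.3% in heart. The Cyp7a1 tile thus separated the 3 organs, with liver lowest, except that the highest liver libraries reached into the heart range.

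The tiles lowest in heart lay in Sptbn1, Bcam, Rcsd1 and Vill. Sptbn1 encodes a beta spectrin of the membrane skeleton. Its tile ran from 3.4% to 10.1% in heart (median 8.9%), from 62.7% to 89.8% in liver (median 76.6%) and from 69.2% to 80.5% in brain (median 78.4%). The tile of Bcam, a laminin receptor, was at 6.57% ± 0.787 (SD, n = 6) in heart against 71.9% in liver and 72.2% in brain. Rcsd1, a partner of the actin-capping protein CapZ, had a tile at 11.5% in heart, 71.0% in liver and 81.2% in brain. The tile of Vill, a relative of villin, was at 12.9% in heart, 68.7% in liver and 68.9% in brain. At each of these tiles every heart library lay below every other library. The heart libraries lay close together except at Vill, where they ran from 6.5% to 22.6% and the lowest brain library was at 42.1%.

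The 24 tiles higher in heart than in both other organs were led by those in Lrig3, Dnajc7, Lpin1 and Nmt1. Lpin1 encodes lipin, a phosphatidate phosphatase of lipid synthesis. Its tile ran from 89.8% to 94.0% in heart (median 93.4%), from 49.2% to 58.9% in brain (median 57.2%) and from 15.8% to 35.8% in liver (median 26.9%), so that the 3 organs did not overlap. The tile of Dnajc7, a cochaperone of heat shock proteins, had the same order, at 92.2% in heart, 51.1% in brain and 30.4% in liver. The tile of Lrig3 was at 72.3% in heart, 24.2% in brain and 23.1% in liver, and that of Nmt1, an enzyme that adds myristate to proteins, at 77.0%, 40.6% and 24.4%.

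**Figure D4:**
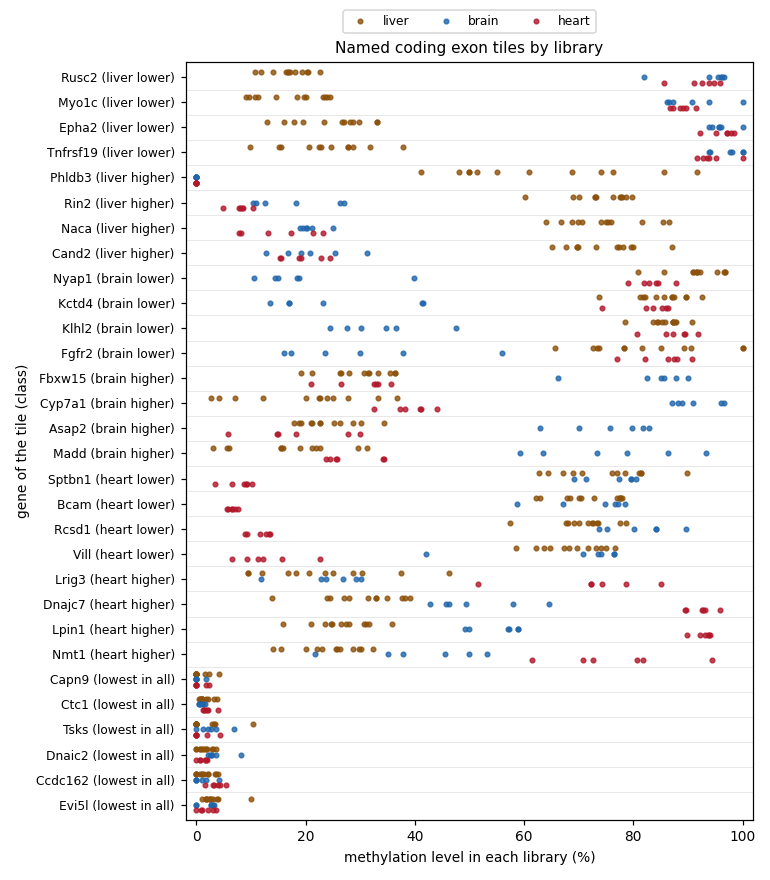
Methylation level (horizontal axis, %) of each named tile in each library (points, 12 liver, 6 brain, 6 heart), with the gene and the class of the tile on the vertical axis. The Lpin1 tile separates heart (89.8% to 94.0%), brain (49.2% to 58.9%) and liver (15.8% to 35.8%), and the 6 tiles at the bottom stay at or below 10.3% in every library.

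The least methylated coding tiles were close to 0 everywhere. The 6 with the lowest mean lay in Capn9, Ctc1, Tsks, Dnaic2, Ccdc162 and Evi5l. Ctc1 encodes a subunit of the complex that maintains telomeres, and its tile, in the last of 23 coding exons, ran from 0.5% to 3.7% in liver (median 1.05%), from 0.4% to 1.5% in brain (median 0.9%) and from 1.2% to 3.9% in heart (median 1.8%). Dnaic2, an intermediate chain of ciliary dynein, had a tile at 1.52% in liver, 3.58% in brain and 1.07% in heart. The 96 tiles below 20% in all organs lay in 89 genes. Their median number of CpGs in 1 kb was 23, with 17 over all coding tiles. Of the 16324 coding tiles 327 had 40 or more CpGs in 1 kb, and 12 of these 96 tiles did. A predicted transcript start lay within 5 kb of 9 of them (9.38%, with 9.75% over all coding tiles) and within 1 kb of none.

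Marker genes were used to check the organ named by each table. Over all tiles in or within 5 kb of a gene, 14 of 14 hepatocyte genes with tiles were least methylated in the liver table and 13 of 15 heart muscle genes in the heart table. Of 17 neuron and glia genes 7 were lowest in the brain table and 10 in the heart table, and 13 were lowest in the brain table once the mean of each table was subtracted. Of 12 genes of blood and endothelium 10 were lowest in the heart table. The part of these cells in the lower level of heart was not tested.

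The coding tiles of hepatocyte genes had a lower median in liver than in the other organs. The 12 tiles, in 7 of 15 genes, had medians of 75% in liver, 87.9% in brain and 82.5% in heart, with 90.5%, 87.5% and 84.6% over all coding tiles. Higher calls against liver were made for 4 in brain (33.3%, with 3.75% over all coding tiles) and 3 in heart (25%, with 2.87%), all of them in Cps1 and Pck1, and none was called lower. The Pck1 tile shown above, in the gene of the enzyme that begins gluconeogenesis, ran from 23.9% to 52.7% in liver (median 34.5%), from 88.0% to 96.3% in brain (median 94.7%) and from 93.2% to 95.9% in heart (median 95.2%). A tile of Cps1, the first enzyme of the urea cycle, was at 32.5% ± 6.26 (SD, n = 12) in liver, 86.1% in brain and 85.1% in heart, while its 4 intron tiles with the same CpG number were at 57.3%, 79.3% and 75.9%. The F2 and Hnf4a tiles, at 83.9% and 87.2% in liver, did not pass the test in any contrast.

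Coding tiles of neuron and glia genes gave 47 tiles in 12 of 17 genes, with medians of 86.3% in liver, 82.6% in brain and 78.7% in heart. Lower calls against liver were made for 7 in brain (14.9%, with 5.29% over all coding tiles) and 5 in heart (10.6%, with 8.34%). In Shank3, a scaffold of excitatory synapses, the tile shown above ran from 35.7% to 64% in liver (median 48.7%), from 7.30% to 18.8% in brain (median 12.8%) and from 5.80% to 16.6% in heart (median 11.95%), and brain and heart overlapped. In Bsn, which encodes the presynaptic protein Bassoon, a tile was at 56.2% ± 10.4 (SD, n = 6) in brain, 82.0% in heart and 93.6% in liver and was called lower in brain against both. Tiles of Map2, Tubb3, Rbfox3, Snap25 and Grin2b were not called in brain against liver.

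The heart muscle list held 152 coding tiles in 8 of 16 genes, of which 110 were in Ttn. Their medians were 90.8% in liver, 90.3% in brain and 74.3% in heart. Lower calls in heart against liver were made for 32 (21.1%, with 8.34% over all coding tiles), and higher calls in brain against heart for 27 (17.8%, with 5.73% over all coding tiles), and none was called in the other direction. In Myh7, the slow cardiac myosin heavy chain, the tile shown above ran from 40.6% to 55.9% in heart (median 51.4%), from 71.8% to 85.5% in liver (median 83.0%) and from 86.6% to 91.8% in brain (median 88.9%). The 3 tiles of Ldb3, a Z-disc protein, averaged 52.8% ± 4.78 (SD, n = 6) in heart, 85.2% in liver and 80.6% in brain. Myh7 and Ldb3 tiles were each called lower in heart than in liver, whereas no Actn2 tile was.

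Ttn, which encodes the giant sarcomere protein titin, gave a profile along 1 gene (chr2:76703980-76982557, mm10, minus strand). Its 110 tiles lay in 58 coding exons. Their mean over libraries ran from 86.4% to 88.1% in liver (median 87.7%), from 82.5% to 87.6% in brain (median 87.4%) and from 71.1% to 73.2% in heart (median 72.0%), so that heart did not overlap the other organs. The heart level was below both others in 105 of the 110 tiles. In heart against liver 22 were called lower, in brain against heart 18 were called higher, and 14 were called in both. The shares over all coding tiles were 8.34%, 5.73% and 3.6%. Heart was lower than liver along the whole gene, since the first 30 tiles from the 5′ end averaged 62.0% in heart and 82.2% in liver, tiles 31 to 60 averaged 74.0% and 86.7%, tiles 61 to 90 averaged 75% and 89.7%, and the last 20 averaged 79.8% and 93.7%. The 35 matched intron tiles of Ttn were lower than its exons in each organ, with an exon excess of 9.24 points in liver, 7.31 in brain and 10.4 in heart.

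**Figure D5:**
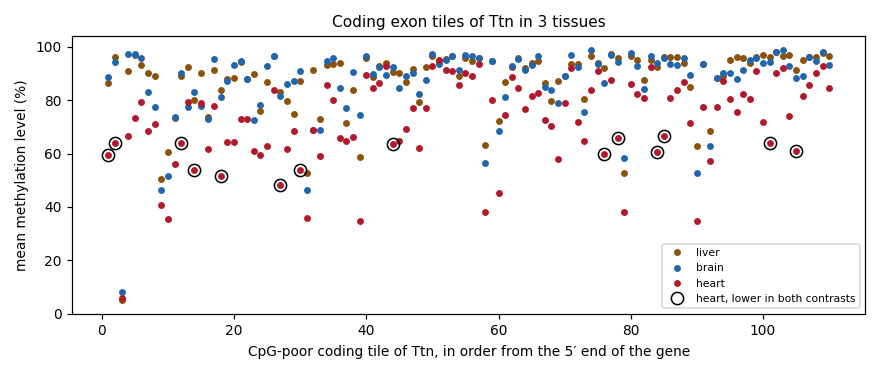
Mean methylation level (vertical axis, %) of the 110 coding exon tiles of Ttn in liver, brain and heart, in order from the 5′ end of the gene (horizontal axis, tile number), with open circles around the 14 heart values called lower than both liver and brain. Heart averaged 62.0% over the first 30 tiles and 79.8% over the last 20.

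Genes of blood cells and endothelium, which occur in every organ, gave 21 coding tiles in 6 of 12 genes, with medians of 81.5% in liver, 83.1% in brain and 62.8% in heart. Lower calls in heart against liver were made for 9 (42.9%, with 8.34% over all coding tiles). Higher calls in brain against heart were made for 8 (38.1%, with 5.73% over all coding tiles). The calls lay in endothelial genes. The Pecam1 tile shown above ran from 7.90% to 27.1% in heart (median 20.3%), from 36.7% to 65.8% in liver (median 54.0%) and from 60% to 84.8% in brain (median 77.4%), with no overlap between heart and the others. The 6 tiles of Kdr, a receptor for vascular endothelial growth factor, averaged 50.4% ± 2.55 (SD, n = 6) in heart, 77.5% in liver and 77.3% in brain. The 3 tiles of Cdh5, the cadherin of endothelial junctions, averaged 60.1%, 72.2% and 87.6%. Tiles of the blood cell genes Itgam and Cd3e were not called in any contrast, though their means were also lowest in heart. Itgam stood at 81.0% in heart, 88.3% in liver and 82.2% in brain, and Cd3e at 62.6%, 79.2% and 80.4%.

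The families of genes fixed by symbol are given by their medians and calls. The 381 coding tiles of 148 zinc finger (Zfp) genes had medians of 94.95% in liver, 92.1% in brain and 92.0% in heart, above the 90.5%, 87.5% and 84.6% of all coding tiles. They gave 15 lower (3.94%, with 8.34% over all coding tiles) and 4 higher (1.05%, with 2.87%) calls in heart against liver. The 184 tiles of 41 collagen genes had medians of 87.1%, 86.2% and 78.9%, and the 174 tiles of 15 axonemal dynein (Dnah) genes, which drive cilia and flagella, 87.8%, 87.5% and 82.4%. The dynein tiles gave 4 higher (2.3%, with 3.75% over all coding tiles) and 9 lower (5.17%, with 5.29%) calls in brain against liver. In heart against liver they gave 2 higher (1.15%, with 2.87%) and 10 lower (5.75%, with 8.34%). A Dnah17 tile was at 17.7% in liver, 93.4% in brain and 88.0% in heart, and a Dnah8 tile at 22.5%, 89.95% and 88.5%. A Dnah2 tile went the other way, at 72.4%, 49.5% and 27.8%. Single exons of ciliary genes thus also differed widely. The 295 tiles of 167 solute carriers had medians of 90%, 88.4% and 85.3%. They gave 19 higher (6.44%, with 3.75% over all coding tiles) and 6 lower (2.03%, with 5.29%) calls in brain against liver. Their calls in heart against liver were 12 higher (4.07%, with 2.87%) and 17 lower (5.76%, with 8.34%). A tile of Slc13a4, a sulphate transporter, was at 25.5% in liver, 94.7% in brain and 94.7% in heart. A Col5a3 tile was at 18.6% in liver, 80.8% in brain and 62.5% in heart, whereas a Col4a1 tile was at 82.5%, 56.3% and 29.3%. Olfactory (7 tiles) and vomeronasal (11 tiles) receptor genes had medians of 90.4% and 88.1% in liver, protocadherins (15 tiles) 85.5%, and Hox genes had no tile.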

How the data were processed

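Reduced representation bisulphite sequencing had been done with a commercial service (Methyl-MiniSeq). Per the labels, Bismark and methylKit were used with the mm10 build. The deposited values are fractions of methylated cytosines per 100 bp tile and library, which the authors made from CpGs with more than 10 reads after removal of the most deeply covered CpGs. Reads per tile were not analysed here, so depth is unknown and no interval on counts is given. Fractions were multiplied by 100.

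Tiles were joined over the 3 tables and annotated with RefSeq GRCm38.p6 (43783 curated transcripts on autosomes), and 99.6% of common tiles held a CpG, with 55.2% once shifted along the chromosome. The table of a tissue gave the tissue of its columns. Coding tiles were set against intron tiles of the same gene and CpG number, per library, with the number of coding tiles as weight. Differences were tested over libraries by exact sign-flip tests within a tissue and exact label permutations between tissues (SciPy 1.17.1), adjusted by the Benjamini-Hochberg method over the 3 tissues or pairs, or the 9 codon tests. Tile differences were tested with limma 3.58.1 (R 4.3.3) on percent over 24 libraries, adjusted over all common tiles. The scripts were tested on simulated data. The members and lists were chosen with earlier results of these data known. Named tiles were, for each tissue and direction, up to 4 tiles called against both other tissues with the widest gap, the 6 lowest tiles, the 4 genes at each end of the exon minus intron difference with at least 3 tiles of each kind, and up to 3 tiles per list with the widest range. Some of these are not reported here. Genes of a list named beyond these were chosen after their values were seen. Alternatives changed the coding overlap, start distance, weighting, intron partner, GC match, CpG number, repeat limit, library left out, scale and threshold.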

Additional observations from a re-analysis of the deposited data

Results flagged for a closer look

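Groups of 6 libraries were looked at for a single library far from the others. Dixon's 95% limit is exceeded in about 1 group in 20 for independent, normally distributed values. The groups here shared libraries and held percentages bounded at 0 and 100, so their number cannot be set against that rate. In 11 of 70 groups a single library stood apart from the others by more than this limit. In brain these were the tiles of Rusc2 (81.9%, the others from 93.8%), Epha2 (100%, the others up to 96.1%), Naca (25%, the others up to 21.1%), Nyap1 (39.8%, the others up to 18.8%), Fbxw15 (66.2%, the others from 82.5%), Vill (42.1%, the others from 70.8%), Capn9 (1.7%, the others at 0) and Dnaic2 (8.1%, the others up to 3.5%). In heart these were the tiles of Kctd4 (74.2%, the others from 82.4%) and Ctc1 (3.9%, the others up to 2.1%), and the mean over all coding tiles (78.1% in the highest library, with 77.6% in the lowest). The exon excess differed between organs by the exact permutation test, by -0.589 points for brain minus liver, 0.577 for heart minus liver and -1.17 for brain minus heart, and the brain minus liver value held under some of the other matches and not under others.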

How the results depend on the processing

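Coding tiles stayed above intron tiles in every alternative and every organ, at 2.65 to 6.65 points in liver, 2.54 to 6.17 in brain and 3.29 to 7.18 in heart, with the lowest values for the nearest intron tile within 5 kb. Leaving out 1 library gave 5.48 to 5.52 in liver, 4.76 to 5.10 in brain and 6.05 to 6.10 in heart; with 5 libraries the exact p cannot go below 0.0625. The brain minus liver difference in the exon excess turned to 0.0729 with GC content matched and to 0.205 with medians, and was -0.113 with the nearest intron tile, -0.202 without soft-masked bases and -0.293 with CCGG and TCGA matched, none of which passed the test (adjusted p 0.115 to 0.583, exact permutation). The heart minus liver difference was 0.0990 with 1-CpG tiles. Leaving out 1 library gave -0.732 to -0.396 for brain minus liver, 0.551 to 0.601 for heart minus liver and -1.31 to -0.973 for brain minus heart. The cause of these shifts was not tested. At 10 and 40 points, calls numbered 1333 and 330 higher and 2760 and 219 lower in brain than in liver, 775 and 269 higher and 4121 and 328 lower in heart than in liver, and 3025 and 153 higher and 1010 and 42 lower in brain than in heart. On a logit scale each count stayed within 1.5 times.

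The codon classes depended on the tiles used. In tiles wholly coding, CGN minus between codons was -0.117 in brain and -1.27 in heart, and NCG minus between codons -0.0396 in heart. Outside CCGG and TCGA (chosen after seeing the data, like the CCGG matches and the predicted starts), the CGN minus NCG difference in brain, heart and liver was 2.30, 4.10 and -0.00259, and NCG minus between codons 0.0908 in brain. In tiles without CCGG, CGN minus NCG was -0.341 in heart and did not pass the test (adjusted p = 0.125, exact sign-flip test). No paired analysis was possible because the columns carry no mouse numbers.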

Other observations

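The single-CpG tiles of exons and introns in TCGA lay below those in CCGG in the 3 organs, by the values given in the report, and the Phldb3 tile was listed at 0 in each of the brain and heart libraries beside 41.2% or more in each liver library. Both were noticed in the data and no explanation was tested.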
